A study of Mus musculus with 20 samples.

Results

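Heart RNA was measured for 31 genes of the tricarboxylic acid (TCA) cycle, of pyruvate entry into mitochondria and of the malate-aspartate shuttle, taken by gene symbol from a table of 25851 genes. Of these 31 genes, 30 had a mean of at least 0.5 FPKM (fragments per kilobase of transcript per 1 M mapped reads) and were tested, and Nnt did not reach it. The 20 hearts came from male mice of 14 to 16 weeks in 4 groups of 5: labelled PGC-1α knockout mice after training, wild-type mice after training, sedentary labelled knockout mice and sedentary wild-type mice. The knockout is labelled as cardiomyocyte-specific, without a Cre line, promoter or strain, and training was 6 weeks of voluntary running on a wheel. Each library came from about 15 to 20 mg of heart, so that fewer cells of a type and less RNA per cell cannot be told apart.

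Pyruvate from glycolysis crosses the inner mitochondrial membrane through the pyruvate carrier and is turned into acetyl-CoA by the pyruvate dehydrogenase complex, which kinases switch off and phosphatases switch on. The TCA cycle oxidises acetyl-CoA and passes electrons to the respiratory chain as NADH and FADH2. The malate-aspartate shuttle moves the electrons of cytosolic NADH into mitochondria, and heart muscle, which lives mainly on oxidative metabolism, relies on it. PGC-1α, encoded by Ppargc1a, is a coactivator that raises transcription of mitochondrial genes through partners such as the estrogen-related receptors (ERR) and NRF-1.

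Depth was 14.2 to 30.4 M recovered reads per library, and cardiomyocyte transcripts were abundant in every library, with 10 markers summing to 16920 to 31429 FPKM. Ppargc1a, the gene named by the knockout label, was higher in the labelled knockout hearts, at 22.6 ± 3.01 against 15.8 ± 4.86 FPKM in wild-type hearts after training and at 22.9 ± 4.41 against 12.3 ± 2.85 FPKM in wild-type hearts at rest (SD, n = 5). The exact two-sided permutation p was 0.0238 after training and 0.00794 at rest. The level went against the label, and a value per gene does not show whether the reads lie in the deleted part, so "labelled knockout" is used throughout. The clock gene Arntl was above 2 FPKM in sedentary labelled knockout library 1 and in sedentary wild-type libraries 1 to 4, and at most 1.16 FPKM in the other 15 libraries. The atrial gene Myl7 was above 1000 FPKM in trained labelled knockout libraries 2 and 5 and in trained wild-type libraries 4 and 5, and at most 97.1 FPKM elsewhere. The deposited FPKM were already scaled between libraries. Under scaling to TPM instead, the median log2 fold change of all genes was 0.24 for genotype after training, 0.21 for training in labelled knockout hearts and 0.15 for the difference of the training changes, so that results are also given relative to that median.

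The levels fell in a regular order. The trained labelled knockout hearts had the lowest of the 4 group means for 28 of the 30 genes, and the sedentary wild-type hearts had the highest for 28. For 24 genes the means ran, from low to high, from trained labelled knockout through sedentary labelled knockout and trained wild-type to sedentary wild-type. For 25 genes every trained labelled knockout library lay below all 15 other libraries. The same counts over all genes were not made, so these counts describe the 30 genes alone. Summed over all 31 genes, the level was 2681 to 3043 FPKM in trained labelled knockout, 4497 to 5786 FPKM in trained wild-type, 4136 to 4485 FPKM in sedentary labelled knockout and 5177 to 6174 FPKM in sedentary wild-type hearts. The median coefficient of variation over the genes was 7.04% in trained labelled knockout, 14.3% in trained wild-type, 6.71% in sedentary labelled knockout and 8.62% in sedentary wild-type hearts, so that trained wild-type hearts varied most among themselves.

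**Figure D1:**
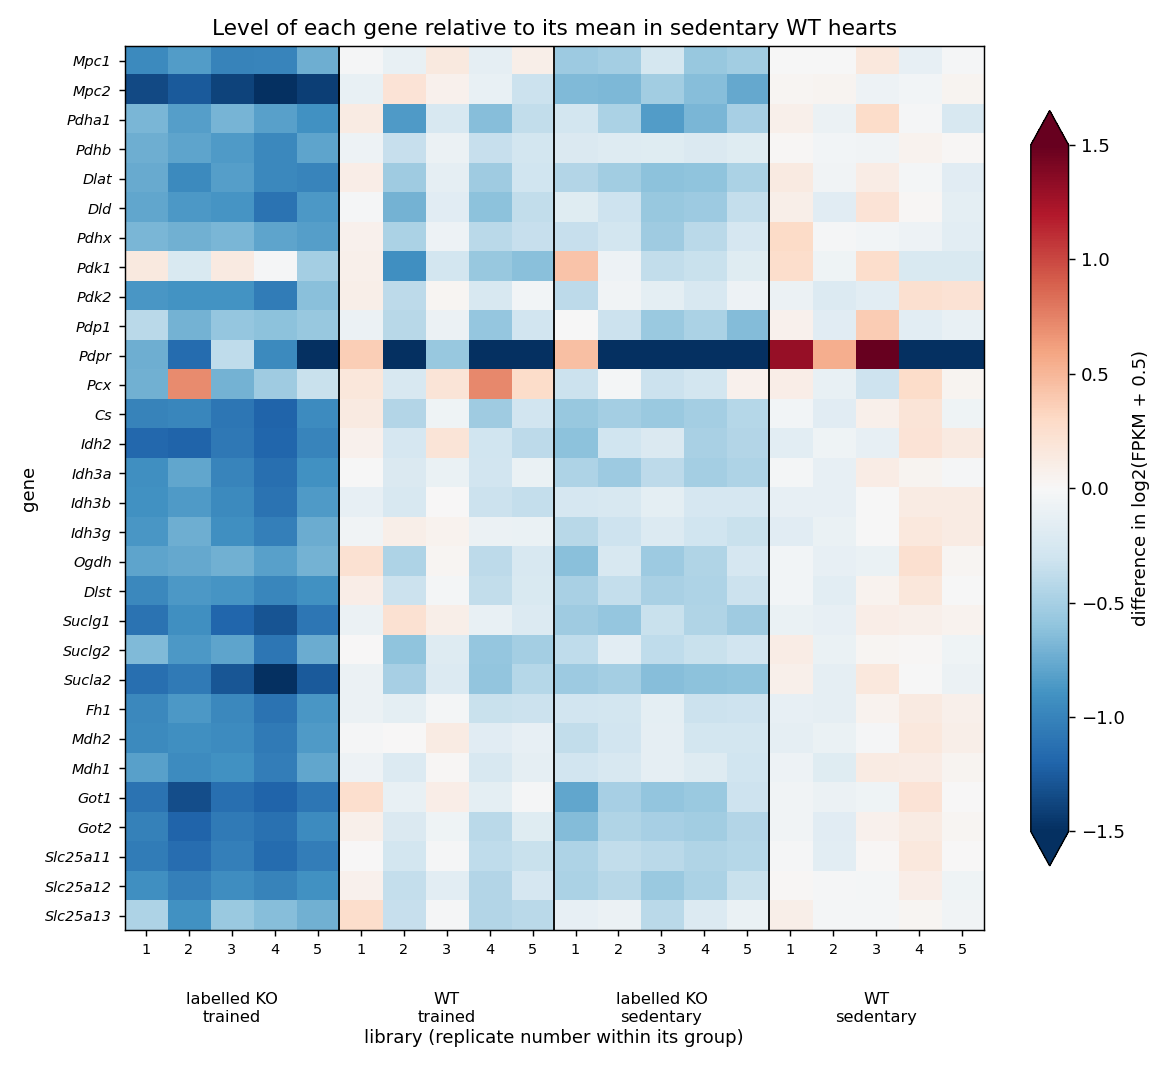
Level of the 30 tested genes (rows) in 20 libraries (columns), as the difference in log2(FPKM + 0.5) from the gene's mean in sedentary wild-type hearts. Blue is lower and red higher. The 5 trained labelled knockout libraries are blue for nearly every gene, while Pdpr and Pcx vary between libraries of 1 group.

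At rest, 23 of the 30 genes were lower in labelled knockout than in wild-type hearts and none was higher (limma adjusted p below 0.05). Of all 13723 genes tested, 6.32% were lower and 6.96% higher. The median log2 fold change was -0.42 over these genes and -0.01 over all genes. Dld, a subunit shared by several dehydrogenase complexes, is counted below both in pyruvate entry and in the cycle, and Mdh2 both in the cycle and in the shuttle. All 30 fold changes were negative, and for 24 genes every labelled knockout library lay below every wild-type library, which held for 5.29% of all genes.

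All 7 genes of pyruvate entry were lower at rest. Mpc2, a subunit of the mitochondrial pyruvate carrier (chromosome 1, 165460637 to 165481214, plus strand of GRCm38), had 23.3, 23.2, 25.9, 23.7 and 21.6 FPKM in sedentary labelled knockout hearts, against 38.1, 38.2, 35.4, 36.1 and 38.4 FPKM in sedentary wild-type hearts. The groups were far apart, with a log2 fold change of -0.65 ± 0.08 (SE, adjusted p = 4.06e-05). Its partner Mpc1 had 21.7, 22.3, 26.4, 21.4 and 22.2 FPKM in sedentary labelled knockout hearts, against 31.7, 31.7, 35.8, 29.3 and 31.6 FPKM in sedentary wild-type hearts. Library 3 was the highest of both groups, and the groups did not overlap (log2 fold change -0.48 ± 0.08, adjusted p = 0.000383). Dlat, the acetyltransferase of the pyruvate dehydrogenase complex, had 68.3, 64.5, 60.7, 61.2 and 66.8 FPKM in sedentary labelled knockout hearts, against 102, 89.8, 100, 91.4 and 82.6 FPKM in sedentary wild-type hearts. The level fell by 30.7% (log2 fold change -0.53 ± 0.10, adjusted p = 0.00180). Pdhb, the beta subunit of the dehydrogenase component, differed least of the 7, at 163 ± 2.04 against 188 ± 5.31 FPKM (log2 fold change -0.20 ± 0.06, adjusted p = 0.0360), and its labelled knockout libraries lay between 161 and 165 FPKM.

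Of the 13 TCA cycle enzymes, 11 were lower at rest. Idh3a, the catalytic subunit of the NAD-dependent isocitrate dehydrogenase (chromosome 9, 54586334 to 54604661, plus strand), had 82.6, 78.4, 86.8, 80.0 and 82.8 FPKM in sedentary labelled knockout hearts, against 112, 105, 124, 118 and 114 FPKM in sedentary wild-type hearts. The groups did not overlap (log2 fold change -0.48 ± 0.07, adjusted p = 0.000196). Sucla2, the ATP-forming beta subunit of succinyl-CoA ligase, had 107, 110, 100, 102 and 103 FPKM in sedentary labelled knockout hearts, against 164, 142, 175, 156 and 147 FPKM in sedentary wild-type hearts. It had the largest fall of the 13 (log2 fold change -0.58 ± 0.10, adjusted p = 0.000759). The shared alpha subunit of that enzyme, Suclg1, had 55.1, 53.4, 63.4, 58.4 and 55.2 FPKM in sedentary labelled knockout hearts, against 74.6, 73.4, 86.0, 84.8 and 83.1 FPKM in sedentary wild-type hearts (-0.49 ± 0.08, adjusted p = 0.000877). The GTP-forming beta subunit Suclg2 (-0.31 ± 0.10, adjusted p = 0.0562) and Idh3b, a regulatory subunit of isocitrate dehydrogenase (-0.23 ± 0.08, adjusted p = 0.05005), lay just outside the threshold, with groups that did not overlap. Cs, the citrate synthase that opens the cycle, was at 167 ± 6.41 against 240 ± 23.5 FPKM (-0.51 ± 0.10, adjusted p = 0.00257).

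Of the 7 genes of the malate-aspartate shuttle, 6 were lower at rest. Got2, the mitochondrial aspartate aminotransferase, had 119, 137, 133, 130 and 138 FPKM in sedentary labelled knockout hearts, against 181, 167, 196, 205 and 192 FPKM in sedentary wild-type hearts. Got1, its cytosolic counterpart, had 196, 237, 223, 229 and 270 FPKM in sedentary labelled knockout hearts, against 325, 315, 321, 388 and 336 FPKM in sedentary wild-type hearts. Both pairs of groups stood apart, with log2 fold changes of -0.52 ± 0.08 for Got2 (adjusted p = 0.000399) and -0.55 ± 0.09 for Got1 (adjusted p = 0.000578). Slc25a12, an aspartate-glutamate carrier, had 26.1, 27.2, 24.6, 26.0 and 28.9 FPKM in sedentary labelled knockout hearts, against 37.0, 35.9, 35.8, 38.9 and 34.7 FPKM in sedentary wild-type hearts (-0.45 ± 0.08, adjusted p = 0.000668). Its paralog Slc25a13 did not pass the test at 36.7 ± 3.29 against 41.6 ± 1.63 FPKM (-0.18 ± 0.11, adjusted p = 0.290), although the groups did not overlap. Mdh2, the malate dehydrogenase of mitochondria that serves both the cycle and the shuttle, had 285, 301, 333, 302 and 304 FPKM in sedentary labelled knockout hearts, against 334, 341, 363, 409 and 391 FPKM in sedentary wild-type hearts. The gap was small, with labelled knockout library 3 just below wild-type library 1 (-0.27 ± 0.07, adjusted p = 0.0177). Its cytosolic form Mdh1 had a like fall (-0.23 ± 0.07, adjusted p = 0.0417).

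Among the regulators of pyruvate dehydrogenase only the phosphatase Pdp1 was lower at rest, with 8.86, 7.01, 5.89, 6.22 and 5.47 FPKM in labelled knockout hearts, against 9.29, 7.80, 11.7, 7.88 and 8.2 FPKM in wild-type hearts. These groups overlapped through library 1 of the labelled knockout (log2 fold change -0.40 ± 0.13, adjusted p = 0.0436). The kinases Pdk1 (-0.11 ± 0.18) and Pdk2 (-0.19 ± 0.11) did not pass the test.

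The count of genotype calls at rest varied with how Arntl was handled. With log2 Arntl in the fit 12 of the 30 genes were lower, against 322 lower and 272 higher among all 13723 genes. Leaving out the 5 libraries above 2 FPKM leaves 1 sedentary wild-type library. The median log2 fold change was then -0.39 over these genes and -0.01 over all genes. With 1 library in that group, this fit cannot show whether the calls at rest hold. Markers of other cells and tissues also differed at rest. Of 10 cardiomyocyte markers 2 and of 10 endothelial markers 3 were lower, and the endothelial sum was 179.6 to 221.5 FPKM in labelled knockout against 223.8 to 280.7 FPKM in wild-type hearts. Of 10 macrophage markers 5 and of 8 epicardial and mesothelial markers 2 were higher. Of 10 skeletal muscle markers 5 were tested and 4 were higher (Acta1, Mylpf, Tnni2 and Tnnt3), with a sum of 2310 to 3338 FPKM in labelled knockout against 529 to 1196 FPKM in wild-type hearts. The sum of 6 atrial markers was 267 to 904 FPKM in labelled knockout against 35.1 to 245 FPKM in wild-type hearts, with no marker called. The atrial markers did not move together, with log2 fold changes from -1.10 to 3.25, a median of 0.01 and 2 negative values. Cardiomyocytes express some skeletal muscle markers too, such as Ckm, and the part of these tissues in the values was not tested.

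**Figure D2:**
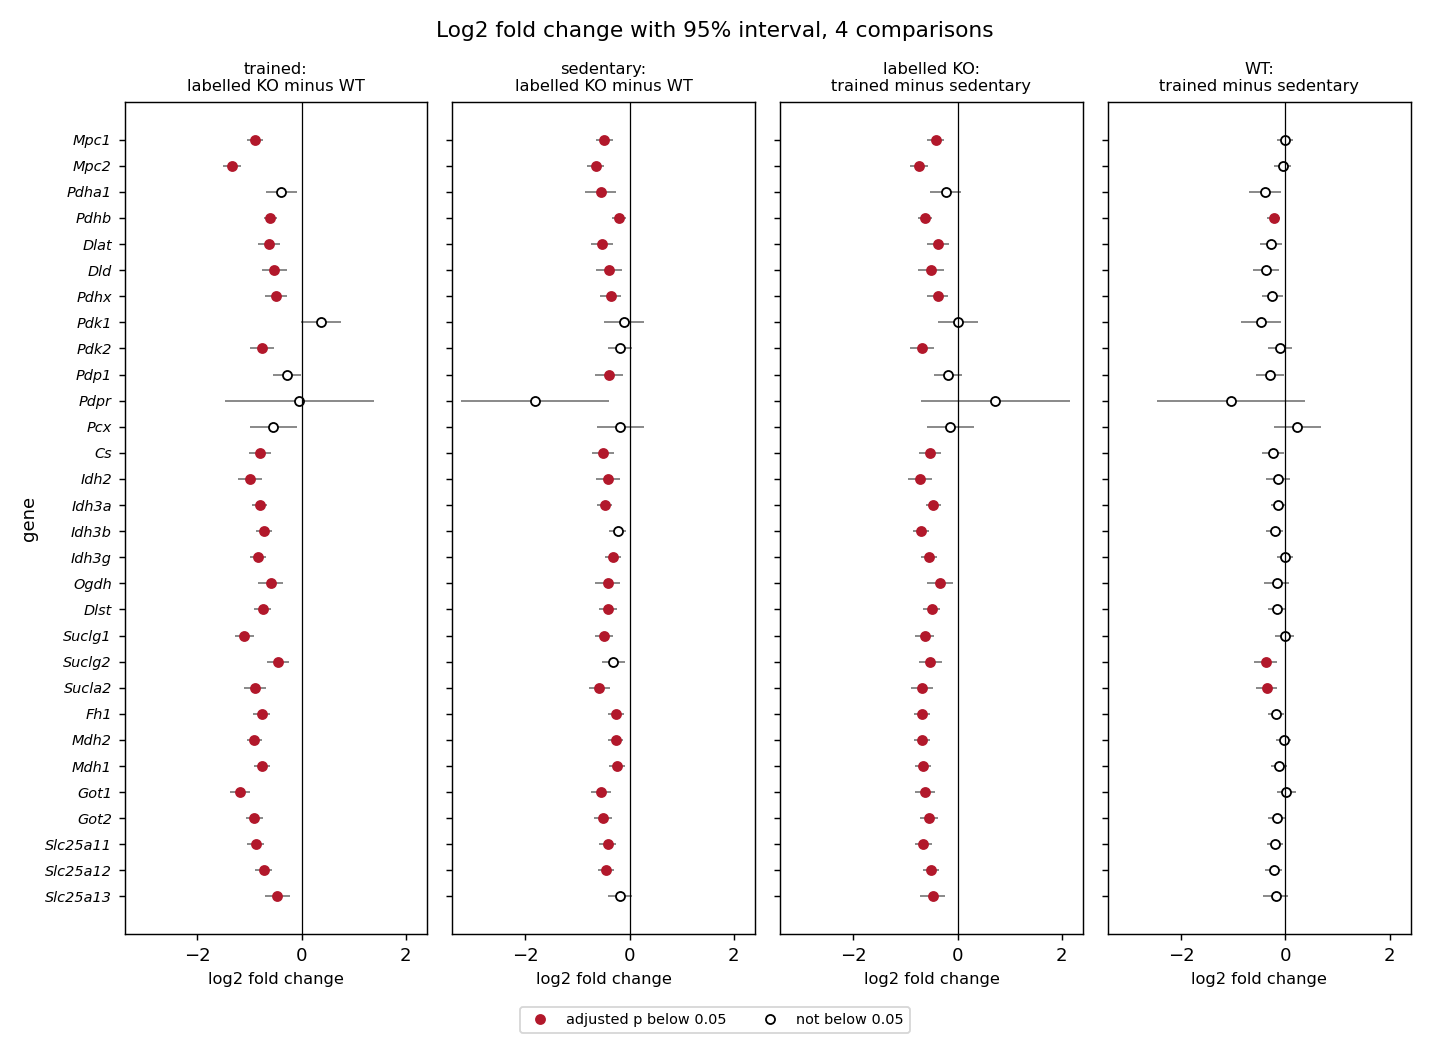
Log2 fold change of each gene (dots) with its 95% interval (lines) in 4 comparisons, from log2(FPKM + 0.5). Filled dots have a limma adjusted p below 0.05: 25 genes for genotype after training, 23 for genotype at rest, 25 for training in labelled knockout hearts and 3 for training in wild-type hearts, all of them lower.

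After training, 25 of the 30 genes were lower in labelled knockout than in wild-type hearts and none was higher, against 15.4% lower and 12.5% higher among all genes. The median log2 fold change was -0.75 over these genes and -0.01 over all genes. For 25 genes the groups did not overlap, as held for 11.1% of all genes. Under TPM scaling the median was -0.46, or -0.71 relative to all genes, with 21 of the 30 genes lower and Pdk1 higher. Among all 13723 genes, 789 were lower and 5128 higher under that scaling.

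The pyruvate carrier had the largest fall. Mpc2 had 14.3, 15.2, 13.9, 12.5 and 13.6 FPKM in trained labelled knockout hearts, against 34.5, 43.1, 38.8, 34.3 and 29.8 FPKM in trained wild-type hearts, a log2 fold change of -1.34 ± 0.08 (adjusted p = 2.71e-09) in which the level fell by 60.4%. Mpc1 had 16.2, 17.7, 15.7, 15.8 and 19.0 FPKM in trained labelled knockout hearts, against 31.6, 29.6, 35.4, 29.0 and 33.9 FPKM in trained wild-type hearts (-0.90 ± 0.08, adjusted p = 8.35e-08). Every labelled knockout library lay below every wild-type library for both subunits. In the pyruvate dehydrogenase complex, Pdhb had 113, 108, 104, 95.5 and 108 FPKM in trained labelled knockout hearts, against 178, 147, 176, 147 and 156 FPKM in trained wild-type hearts (-0.60 ± 0.06, adjusted p = 5.95e-07). Dlat and Pdhx, which build the core of the complex, and Dld, the dehydrogenase bound to that core, were lower too, with log2 fold changes of -0.62 for Dlat, -0.49 for Pdhx and -0.52 for Dld. Pdha1, the alpha subunit that the kinases phosphorylate, had 132, 120, 131, 121 and 113 FPKM in trained labelled knockout hearts, against 231, 117, 180, 136 and 165 FPKM in trained wild-type hearts. Its wild-type libraries spread over a wide range that reached into the labelled knockout values, and it missed the threshold (-0.39 ± 0.14, adjusted p = 0.0507).

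All 13 TCA cycle enzymes were lower after training, each without overlap. Suclg1 (chromosome 6, 73248382 to 73276911, plus strand) had 36.8, 42.2, 34.9, 32.4 and 37.6 FPKM in trained labelled knockout hearts, against 75.4, 94.0, 85.0, 74.5 and 69.6 FPKM in trained wild-type hearts. Its level was less than in any other group (log2 fold change -1.10 ± 0.08, adjusted p = 2.96e-08). Mdh2 had 190, 194, 190, 176 and 204 FPKM in trained labelled knockout hearts, against 361, 367, 401, 326 and 336 FPKM in trained wild-type hearts (-0.91 ± 0.07, adjusted p = 3.53e-08). Idh3a had 60.1, 66.4, 57.4, 51.8 and 61.0 FPKM in trained labelled knockout hearts, against 114, 98.3, 107, 93.6 and 107 FPKM in trained wild-type hearts (-0.80 ± 0.07, adjusted p = 9.37e-08). These 3 enzymes act at separate steps of the cycle and stood apart by more than the spread of either group. The smallest falls were those of Suclg2 (-0.45 ± 0.10), Dld (-0.52 ± 0.12) and Ogdh (-0.59 ± 0.12), the last being the decarboxylating subunit of the 2-oxoglutarate dehydrogenase complex, which shares Dld with pyruvate dehydrogenase.

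All 7 shuttle genes were lower after training, again without overlap. Got1 (chromosome 19, 43499752 to 43524605, minus strand) had 156, 134, 153, 145 and 158 FPKM in trained labelled knockout hearts, against 401, 312, 361, 304 and 332 FPKM in trained wild-type hearts. The labelled knockout libraries were tightly grouped, and the level fell by 56.1% (log2 fold change -1.19 ± 0.09, adjusted p = 2.82e-08). Slc25a11, the malate-2-oxoglutarate carrier, had 133, 126, 136, 124 and 135 FPKM in trained labelled knockout hearts, against 279, 229, 275, 213 and 220 FPKM in trained wild-type hearts (-0.88 ± 0.08, adjusted p = 1.02e-07). Got2 had 92.7, 81.3, 90.1, 86.2 and 97.8 FPKM in trained labelled knockout hearts, against 198, 161, 180, 141 and 165 FPKM in trained wild-type hearts (-0.91 ± 0.08, adjusted p = 1.67e-07). Slc25a13, which did not pass the test at rest, was lower here (-0.47 ± 0.11, adjusted p = 0.00410).

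Of the regulators, the kinase Pdk2 was lower after training, with 87.1, 85.4, 85.6, 76.7 and 103 FPKM in labelled knockout hearts, against 169, 122, 163, 135 and 156 FPKM in wild-type hearts (log2 fold change -0.76 ± 0.11, adjusted p = 3.26e-05). The kinase Pdk1 had 28.8, 22.2, 28.6, 25.8 and 18.1 FPKM in trained labelled knockout hearts, against 27.5, 13.5, 21.4, 17.3 and 16.7 FPKM in trained wild-type hearts. It was the only gene of the 30 with a positive value (0.37 ± 0.18), which did not pass the test (adjusted p = 0.146). Under TPM scaling it did (0.66 ± 0.18, adjusted p = 0.00754). That scaling moved the median of all genes to 0.24, with 5128 of 13723 genes higher, so this call is not particular to Pdk1.

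Other transcripts moved with these values after training. Of 10 cardiomyocyte markers 7 were lower (median log2 fold change -0.46), and their sum was 16920 to 19587 FPKM in labelled knockout against 21375 to 28276 FPKM in wild-type hearts. Of 10 macrophage markers 10 and of 10 fibroblast markers 8 were higher, and 5 of 10 endothelial markers were lower. Epicardial and mesothelial markers had 2 higher and 1 lower of 8. Among 6 atrial markers 1 was higher, and their sums overlapped, at 1486 to 5631 FPKM in labelled knockout against 16.3 to 9330 FPKM in wild-type hearts. Of the 5 skeletal muscle markers tested, Acta1 (log2 fold change 3.52) and Mylpf were higher and Ckm was lower. Cardiomyocytes express Ckm too, so the list is not specific to skeletal muscle. The sum of this list was 1484 to 3509 FPKM in labelled knockout against 473 to 869 FPKM in wild-type hearts, without overlap. The part of all these markers in the result was not tested. Without the 4 libraries with high Myl7, 26 of the 30 genes were lower and the median was -0.85. Among all 13723 genes, 1939 were then lower and 1608 higher, with a median of -0.005.

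**Figure D3:**
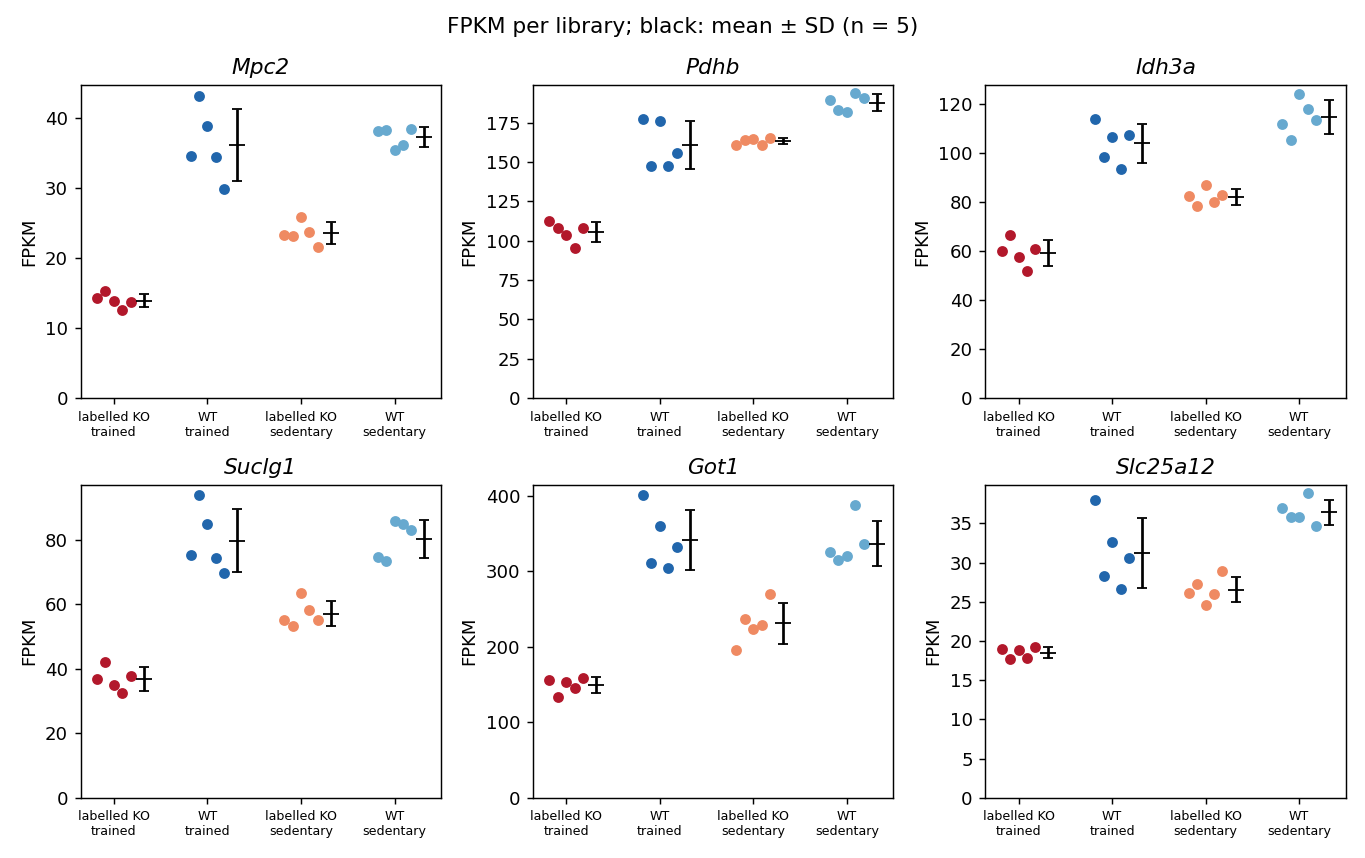
FPKM of 6 genes in every library (coloured points) with the group mean ± SD (black, n = 5), on axes from 0. In each panel the trained labelled knockout libraries lie below all others, as for Mpc2 at 12.5 to 15.2 FPKM, and the wild-type groups overlap except for Pdhb.

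In wild-type hearts few of these genes differed with training. Pdhb, Sucla2 and Suclg2 were lower in trained than in sedentary wild-type hearts, 3 of the 30 genes, and none was higher, against 2.53% lower and 2.94% higher among all genes. The median log2 fold change was -0.19 over these genes and -0.01 over all genes, and it was -0.09 without the 4 libraries with high Myl7 and -0.11 under TPM scaling (-0.16 relative to all genes). Pdhb had 178, 147, 176, 147 and 156 FPKM in trained wild-type hearts, against 190, 183, 182, 194 and 191 FPKM in sedentary wild-type hearts, the only gene of the 30 without overlap, as held for 1.68% of all genes (-0.23 ± 0.06, adjusted p = 0.0406). Sucla2 had 147, 111, 136, 103 and 117 FPKM in trained wild-type hearts, against 164, 142, 175, 156 and 147 FPKM in sedentary wild-type hearts (-0.36 ± 0.10, adjusted p = 0.0425). Suclg2 had 40.7, 26.6, 35.5, 26.9 and 28.3 FPKM in trained wild-type hearts, against 43.8, 37.8, 41.5, 41.2 and 39.0 FPKM in sedentary wild-type hearts (-0.38 ± 0.10, adjusted p = 0.0441). In both genes only trained library 1 reached the sedentary range, and libraries 2, 4 and 5 were the lowest.

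Genes with a value near 0 under training in wild-type hearts included Mpc1 (-0.01, 95% interval -0.16 to 0.15), Suclg1 (-0.02, -0.20 to 0.16), Idh3g (-0.02, -0.17 to 0.13) and Got1 (0.02, -0.17 to 0.21). Slc25a12 had 38.1, 28.4, 32.6, 26.6 and 30.6 FPKM in trained wild-type hearts, against the 34.7 to 38.9 FPKM at rest given above, and did not pass the test (-0.23 ± 0.08, adjusted p = 0.0766). Pdk1 had the trained values given above, against 31.2, 24.9, 31.3, 22.1 and 22.2 FPKM in sedentary wild-type hearts, and did not pass it either (-0.46 ± 0.18, adjusted p = 0.121). The 3 calls were lost without the 4 libraries with high Myl7, of which 2 are trained wild-type libraries. Leaving out single libraries gave 0 calls without trained wild-type library 2, 4 or 5 and without sedentary wild-type library 1, 2, 3 or 4. The count was also 0 without sedentary labelled knockout library 2, 4 or 5 and without trained labelled knockout library 3. It was 1 without trained labelled knockout library 5, 5 without trained wild-type library 3 and 13 without trained wild-type library 1. Without that last library, 1260 of all genes were lower and 1051 higher, against 347 and 403 with all libraries.

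In labelled knockout hearts training was followed by a fall of most of the pathway. Of the 30 genes, 25 were lower in trained than in sedentary labelled knockout hearts and none was higher, against 16.3% lower and 12.1% higher among all genes. The median log2 fold change was -0.52 over these genes and -0.02 over all genes. For 25 genes the groups did not overlap, as held for 13.7% of all genes. By role these were 6 of 7 genes of pyruvate entry, 13 of 13 TCA cycle enzymes, 7 of 7 shuttle genes and Pdk2 of the 4 regulators. Under TPM scaling 19 were lower and the median was -0.26, or -0.46 relative to all genes. Of all 13723 genes, 630 were lower and 4052 higher under that scaling.

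Mpc2 averaged 13.9 ± 0.98 FPKM in trained and 23.5 ± 1.54 FPKM in sedentary hearts of labelled knockouts (log2 fold change -0.74 ± 0.08, adjusted p = 6.63e-06). Pdhb had the trained values given above, against 161, 164, 165, 161 and 165 FPKM in sedentary labelled knockout hearts (-0.63 ± 0.06, adjusted p = 3.15e-06). For neither gene did a trained library reach the sedentary range. Fh1, the fumarate hydratase, had 78.8, 84.6, 79.1, 71.3 and 84.0 FPKM in trained labelled knockout hearts, against 126, 128, 140, 124 and 124 FPKM in sedentary labelled knockout hearts (-0.69 ± 0.07, adjusted p = 6.37e-06). Idh3b had 129, 135, 126, 113 and 135 FPKM in trained labelled knockout hearts, against 204, 206, 220, 204 and 205 FPKM in sedentary labelled knockout hearts (-0.70 ± 0.08, adjusted p = 6.37e-06). Mdh2 averaged 190 ± 10.1 FPKM in trained and 305 ± 17.6 FPKM in sedentary labelled knockout hearts (-0.68 ± 0.07, adjusted p = 5.37e-06). These 3 enzymes had gaps between the groups far wider than the spread within either. In the shuttle Mdh1 had 470, 433, 443, 403 and 482 FPKM in trained labelled knockout hearts, against 683, 702, 755, 724 and 673 FPKM in sedentary labelled knockout hearts (-0.67 ± 0.07, adjusted p = 7.42e-06). Slc25a11 had the trained values given above, against 201, 214, 210, 203 and 206 FPKM in sedentary labelled knockout hearts (-0.66 ± 0.08, adjusted p = 1.03e-05). The kinase Pdk2 had 121, 153, 144, 135 and 151 FPKM in sedentary labelled knockout hearts, all above the trained values given earlier (-0.68 ± 0.11, adjusted p = 0.000144).

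Pdha1 (-0.23 ± 0.14), Pdp1 (-0.18 ± 0.13), Pdk1 (0.01 ± 0.18), Pcx (-0.14 ± 0.22) and Pdpr (0.73 ± 0.68) did not pass the test for training in labelled knockout hearts. Cardiomyocyte markers moved with this comparison as well, with 8 of 10 lower at a median of -0.62 and sums of 16920 to 19587 FPKM in trained against 25328 to 29449 FPKM in sedentary labelled knockout hearts. Of 10 macrophage markers 10 and of 10 fibroblast markers 7 were higher, and of 5 skeletal muscle markers tested 3 were lower. The atrial sum was 1486 to 5631 FPKM in trained against 267 to 904 FPKM in sedentary labelled knockout hearts, with no marker called. Their part in the fall was not tested.

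The training change was lower in labelled knockout than in wild-type hearts for 15 of the 30 genes and higher for none, against 5.00% lower and 2.32% higher among all genes. The median difference of the changes was -0.35 on the log2 scale over these genes and -0.01 over all genes. The 15 genes were 3 of pyruvate entry, 7 of the TCA cycle, 5 of the shuttle and Pdk2. Mpc2 had a log2 training change of -0.74 in labelled knockout and -0.05 in wild-type hearts, a difference of -0.68 ± 0.11 (adjusted p = 0.00578). Mdh2 changed by -0.68 in labelled knockout and -0.04 in wild-type hearts (difference -0.64 ± 0.10, adjusted p = 0.00567). Got1 changed by -0.62 in labelled knockout and 0.02 in wild-type hearts (difference -0.64 ± 0.13, adjusted p = 0.00825). In these 3 genes the training change in wild-type hearts was within its error of 0.

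Suclg1 and Idh3g followed the same form, with differences of -0.61 ± 0.12 and -0.52 ± 0.10 (adjusted p = 0.00825 each). Idh3g, a regulatory subunit of the NAD-dependent isocitrate dehydrogenase, had 89.97, 98.8, 87.1, 81.0 and 98.4 FPKM in trained labelled knockout and 159, 175, 172, 155 and 154 FPKM in trained wild-type hearts, with 123, 132, 143, 134 and 131 FPKM in sedentary labelled knockout and 147, 154, 164, 183 and 179 FPKM in sedentary wild-type hearts. The wild-type libraries covered the same range at rest and after training, while the labelled knockout groups did not overlap. Idh2, the NADP-dependent isocitrate dehydrogenase of mitochondria, had 369, 364, 395, 365 and 420 FPKM in trained labelled knockout and 872, 702, 953, 678 and 637 FPKM in trained wild-type hearts, with 546, 676, 717, 593 and 615 FPKM in sedentary labelled knockout and 745, 800, 767, 964 and 919 FPKM in sedentary wild-type hearts. Its wild-type libraries spread widely after training, and the difference of the changes was -0.58 ± 0.15 (adjusted p = 0.0317).

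In wild-type hearts the other genes of the 15 had training values close to or somewhat below those at rest. Fh1 had 145, 139, 152, 122 and 123 FPKM in trained wild-type hearts, against 142, 140, 160, 169 and 164 FPKM in sedentary wild-type hearts (difference of the changes -0.50 ± 0.11, adjusted p = 0.0107). Idh3b had 224, 206, 245, 195 and 190 FPKM in trained wild-type hearts, against 225, 224, 242, 266 and 266 FPKM in sedentary wild-type hearts (difference of the changes -0.50 ± 0.11, adjusted p = 0.0119). Both genes overlapped between the wild-type groups, unlike in labelled knockout hearts. Mdh1 had 788, 718, 839, 702 and 756 FPKM in trained wild-type hearts, against 785, 732, 904, 894 and 851 FPKM in sedentary wild-type hearts (difference of the changes -0.54 ± 0.10, adjusted p = 0.00764). For Slc25a11 the sedentary wild-type values were 274, 248, 281, 309 and 278 FPKM, and for Pdk2 they were 150, 138, 143, 189 and 186 FPKM. The differences of the changes were -0.46 ± 0.11 for Slc25a11 and -0.57 ± 0.16 for Pdk2, where the trained wild-type values given above reach into these ranges. They were -0.42 ± 0.11 for Mpc1, -0.40 ± 0.09 for Pdhb, -0.39 ± 0.12 for Got2 and -0.33 ± 0.10 for Idh3a. For Cs (-0.29 ± 0.14), Ogdh (-0.17 ± 0.16), Sucla2 (-0.32 ± 0.14), Suclg2 (-0.14 ± 0.15), Dlat (-0.09 ± 0.14), Dld (-0.13 ± 0.17) and Pdhx (-0.13 ± 0.14) the difference did not pass the test. Under TPM scaling 4 of the 30 genes passed and the median was -0.16, or -0.31 relative to all genes. Without the 5 libraries with high Arntl none passed, with 1 sedentary wild-type library left and a median of -0.37. Of the markers, 2 of 10 for cardiomyocytes and 2 of 5 tested for skeletal muscle were lower, and 5 of 10 for fibroblasts and 3 of 10 for macrophages were higher in this difference, and their part in it was not tested.

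**Figure D4:**
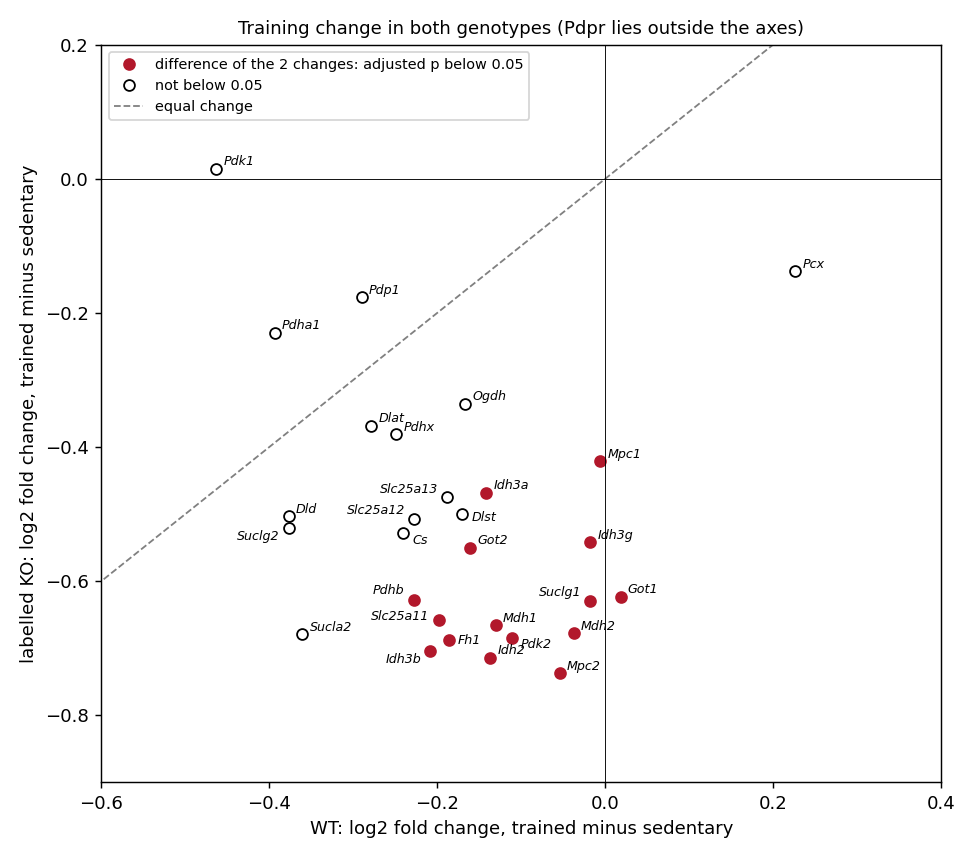
Log2 fold change of trained against sedentary hearts in labelled knockout (vertical axis) and wild-type mice (horizontal axis) for 29 genes, with Pdpr outside the axes. Filled points are the 15 genes whose 2 changes differ at an adjusted p below 0.05; they lie below the dashed line of equal change, such as Mpc2 at -0.74 and -0.05.

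The balance between partner subunits and paralogs was compared in 10 pairs and 4 comparisons by exact two-sided permutation tests on the log2 ratio, adjusted over the 40 tests, for which the smallest p is 0.00794. The pairs follow from shared complexes and reactions but were chosen with the values known. A ratio within a library does not depend on the scaling between libraries. Idh3a to Idh3b was 0.395 ± 0.00994 in sedentary labelled knockout against 0.470 ± 0.0356 in sedentary wild-type hearts (difference -0.25, exact p = 0.00794, adjusted p = 0.0397). It was 0.465 ± 0.0154 in trained labelled knockout hearts, higher than in sedentary ones (difference 0.23, the same p). Dlat to Pdhb gave the same form, at 0.394 ± 0.0217 in sedentary labelled knockout against 0.497 ± 0.0489 in sedentary wild-type hearts (difference -0.33, exact p = 0.00794) and 0.472 ± 0.0325 in trained labelled knockout hearts (difference 0.26 from sedentary labelled knockout, exact p = 0.00794). In both pairs the partner with the smaller difference at rest, Idh3b or Pdhb, fell further with training in labelled knockout hearts.

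Mpc2 to Mpc1 was 0.827 ± 0.0702 in trained against 1.03 ± 0.0582 in sedentary labelled knockout hearts (difference -0.33, exact p = 0.00794). Got1 to Got2 was 1.67 ± 0.0352 in trained labelled knockout against 2.03 ± 0.0792 in trained wild-type hearts (difference -0.28, exact p = 0.00794). The trained wild-type ratio was also above the 1.79 ± 0.105 of sedentary wild-type hearts (difference 0.18, exact p = 0.00794). Slc25a12 to Slc25a13 was 0.727 ± 0.0425 in sedentary labelled knockout against 0.876 ± 0.0290 in sedentary wild-type hearts (difference -0.27, exact p = 0.00794). The other 32 ratio tests did not pass the adjusted threshold, among them all 4 for Mdh1 to Mdh2, with means between 2.13 and 2.34 in the 4 groups.

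Pdpr and Pcx varied between libraries of 1 group more than between groups. Pdpr, a regulatory subunit of pyruvate dehydrogenase phosphatase, had 4.28, 3.07, 5.63, 3.62 and 1.19 FPKM in trained labelled knockout and 9.80, 2.33, 4.87, 2.18 and 1.54 FPKM in trained wild-type hearts. At rest it had 10.4, 1.42, 0.912, 0.678 and 1.18 FPKM in labelled knockout hearts, against 19.2, 11.2, 22.0, 1.97 and 2.02 FPKM in wild-type hearts. At rest the high values fell in libraries with high Arntl, which was 2.50, 0.132, 0.137, 0.136 and 0.150 FPKM in the sedentary labelled knockout and 3.13, 2.78, 4.36, 2.46 and 0.0658 FPKM in the sedentary wild-type libraries. Sedentary wild-type library 4 went against this, with high Arntl and low Pdpr. Its Per1, another clock gene, was at 19.8 FPKM, against 3.08, 8.44 and 9.51 FPKM in wild-type libraries 1 to 3. Pdpr passed the test in none of the comparisons, with a log2 fold change of -1.82 ± 0.68 for genotype at rest (adjusted p = 0.0834), and 50 to 1893 recovered reads per library lie behind its values.

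Pcx, the pyruvate carboxylase that refills the cycle with oxaloacetate, had 6.39, 18, 6.45, 7.36 and 8.48 FPKM in trained labelled knockout and 12.3, 9.11, 12.5, 18.2 and 13.2 FPKM in trained wild-type hearts. The highest library of each group, 2 in labelled knockout and 4 in wild-type hearts, also held the adipocyte transcripts Adipoq, at 36.7 and 27.2 FPKM, and Ucp1, at 117 and 57.8 FPKM. At rest Pcx had 8.58, 10.6, 8.53, 8.89 and 11.3 FPKM in labelled knockout hearts, against 11.7, 9.98, 8.67, 13.2 and 11.2 FPKM in wild-type hearts, which overlapped. It did not pass the test in any comparison (after training -0.54 ± 0.22, adjusted p = 0.0717), and the part of adipose tissue in its level was not tested.

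Nnt, the proton-driven transhydrogenase that makes mitochondrial NADPH, was at 0.121 ± 0.0282 FPKM in trained labelled knockout, 0.166 ± 0.0609 FPKM in trained wild-type, 0.166 ± 0.0621 FPKM in sedentary labelled knockout and 0.204 ± 0.0691 FPKM in sedentary wild-type hearts. That rests on 9 to 37 recovered reads per library, and no comparison was made. Nnt is known to be disrupted in the C57BL/6J mouse strain, and the strain of these mice was not given in the sources used here.

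**Figure D5:**
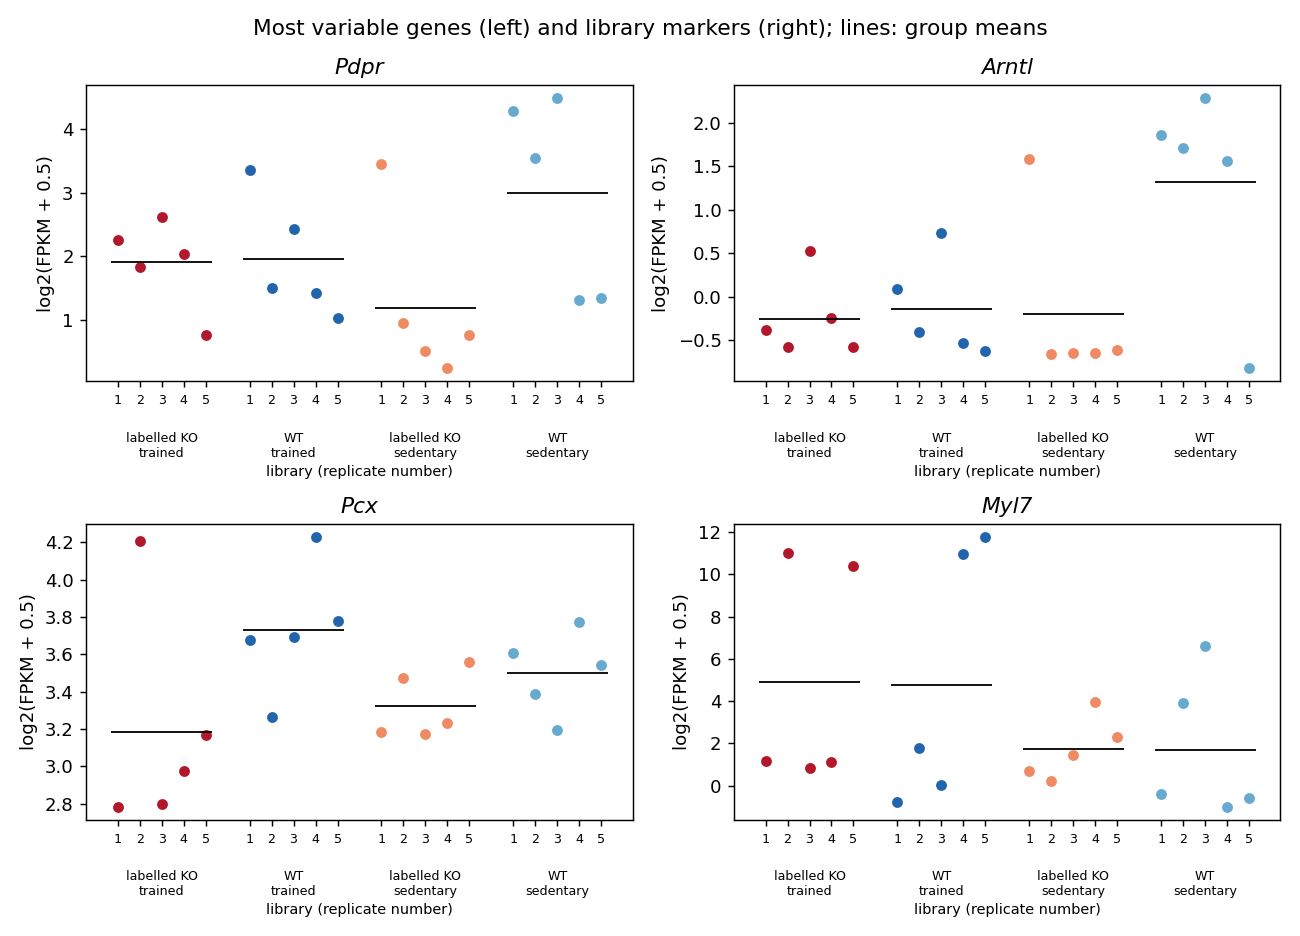
Pdpr and Pcx (left) beside the clock gene Arntl and the atrial gene Myl7 (right) in every library, as log2(FPKM + 0.5), with group means as lines. Pdpr is high in 4 of the 5 sedentary libraries with Arntl above 2 FPKM, and Pcx is highest in 2 of the 4 libraries with Myl7 above 1000 FPKM.

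Of 37 further genes listed for these pathways, 36 were found in the table by symbol and 35 were tested. At rest 11 were lower and 2 higher in labelled knockout than in wild-type hearts, against 6.32% lower and 6.96% higher among all genes, and after training 20 were lower and 2 higher, against 15.4% and 12.5%. The share of further genes that were higher was thus not above that of all genes. Training was followed by 20 lower and 0 higher in labelled knockout hearts, against 16.3% and 12.1% among all genes, and by 4 lower and 0 higher in wild-type hearts, against 2.53% and 2.94%. Me3, the mitochondrial NADP-dependent malic enzyme, had 1.58, 1.64, 1.71, 1.57 and 1.43 FPKM in trained labelled knockout hearts, against 5.54, 5.79, 6.04, 4.56 and 4.96 FPKM in trained wild-type hearts. It had the largest fall of the list both after training (log2 fold change -1.49 ± 0.07, adjusted p = 2.77e-10) and at rest (-1.25 ± 0.07, adjusted p = 6.55e-09). Ldhb, the lactate dehydrogenase subunit typical of heart, had 415, 430, 411, 362 and 465 FPKM in trained labelled knockout hearts, against 989, 994, 1056, 852 and 788 FPKM in trained wild-type hearts (-1.16 ± 0.08, adjusted p = 1.72e-08). Its sister subunit Ldha, typical of fast muscle, was among the 2 genes that were higher, with 288, 257, 291, 305 and 265 FPKM in trained labelled knockout hearts, against 222, 245, 236, 218 and 210 FPKM in trained wild-type hearts (0.31 ± 0.10, adjusted p = 0.0199; at rest 0.47 ± 0.10, adjusted p = 0.00331). The other was the malic enzyme Me2 (0.57 ± 0.12 after training and 0.47 ± 0.12 at rest).

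Succinate dehydrogenase, the cycle enzyme that is also respiratory complex II, followed the other cycle enzymes. After training Sdhb was lower by -0.96 ± 0.08 and Sdhc by -0.64 ± 0.07 on the log2 scale in labelled knockout hearts (adjusted p = 1.21e-07 and 1.57e-06). The training change also differed between the genotypes for Ldhb (-0.72 ± 0.12, adjusted p = 0.00568) and Sdhb (-0.64 ± 0.12, adjusted p = 0.00705). Pdp2, the second pyruvate dehydrogenase phosphatase, was lower at rest (-0.79 ± 0.15, adjusted p = 0.00162), and Glud1, the glutamate dehydrogenase, was lower there too (-0.50 ± 0.08, adjusted p = 0.000291). The 4 further genes lower with training in wild-type hearts were Me1, the cytosolic malic enzyme (-0.41 ± 0.08, adjusted p = 0.0147), Glud1 (-0.29 ± 0.08, adjusted p = 0.0361), Pdk4 and Lias, the lipoyl synthase (-0.22 ± 0.06, adjusted p = 0.0491). Pdk4, the kinase that fasting induces, had 69.0, 95.04, 57.8, 42.7 and 60.9 FPKM in trained wild-type hearts, against 134, 131, 151, 175 and 71.1 FPKM in sedentary wild-type hearts. Its groups overlapped through sedentary library 5, the wild-type library with low Arntl (-1.01 ± 0.29, adjusted p = 0.0481).

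Promoters were read because PGC-1α acts through ERR and NRF-1 on many mitochondrial genes, and the sequences below are those of genes with large changes or with a match. RefSeq promoters of GRCm38.p6, from 250 bases before to 50 bases after a start, were found for 28 of the 31 genes (37 promoters), and both strands were searched. The ERR element TNAAGGTCA matched none of the 28 genes, against 1.43% of 27025 genes with a promoter. The shorter half-site AAGGTCA, which lies within it, matched 2 genes, Got1 and Ogdh (7.14%, against 5.38% of all genes). The NRF-1 core GCGCANGCG and the GABP core CCGGAAGT were added after the ERR element had matched none. The NRF-1 core matched 3 genes, Dld, Ogdh and Sucla2 (10.7%, against 7.03%), and the GABP core matched Dlst (3.57%, against 4.31%). A match is a description of letters and not a measured site.

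Mpc2, with the largest fall and no match, Got1, with the half-site, and Ogdh and Sucla2, with the NRF-1 core, are given on their own strand with the matched letters in capitals. The Got1 match begins 245 bases before the start, that of Ogdh 15 bases and that of Sucla2 16 bases before it. The half-site of Ogdh lies in another of its promoters, not shown. The windows are chr1:165461010-165461309 (plus strand), chr19:43524556-43524855 (minus strand), chr11:6292308-6292607 (plus strand) and chr14:73552536-73552835 (plus strand).
Mpc2: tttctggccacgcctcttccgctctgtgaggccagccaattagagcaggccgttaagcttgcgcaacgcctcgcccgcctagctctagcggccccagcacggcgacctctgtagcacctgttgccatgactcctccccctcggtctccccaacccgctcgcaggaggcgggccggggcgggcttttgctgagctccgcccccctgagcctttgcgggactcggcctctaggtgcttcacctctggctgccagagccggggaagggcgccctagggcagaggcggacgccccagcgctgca
Got1: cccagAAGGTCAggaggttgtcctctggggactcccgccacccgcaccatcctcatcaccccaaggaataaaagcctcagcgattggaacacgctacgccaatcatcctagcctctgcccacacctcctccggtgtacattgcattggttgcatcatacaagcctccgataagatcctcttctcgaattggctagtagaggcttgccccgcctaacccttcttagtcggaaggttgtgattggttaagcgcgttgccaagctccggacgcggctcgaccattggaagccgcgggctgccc
Ogdh: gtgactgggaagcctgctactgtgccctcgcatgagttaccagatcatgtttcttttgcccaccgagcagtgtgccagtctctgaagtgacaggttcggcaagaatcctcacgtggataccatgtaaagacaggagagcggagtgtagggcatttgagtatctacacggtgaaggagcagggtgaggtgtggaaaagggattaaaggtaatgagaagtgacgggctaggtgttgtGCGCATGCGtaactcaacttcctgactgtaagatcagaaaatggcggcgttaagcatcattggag
Sucla2: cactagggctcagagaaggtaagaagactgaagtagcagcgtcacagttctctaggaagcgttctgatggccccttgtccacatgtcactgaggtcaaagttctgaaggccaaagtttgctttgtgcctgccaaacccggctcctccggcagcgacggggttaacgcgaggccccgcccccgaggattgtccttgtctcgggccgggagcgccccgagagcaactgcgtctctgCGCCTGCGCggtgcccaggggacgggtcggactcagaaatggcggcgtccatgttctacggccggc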

How the data were processed

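Poly-A selected, strand-specific libraries from 20 hearts were sequenced on an Illumina HiSeq instrument and carry 1 batch label. The values are FPKM made and deposited by the authors. The submitters' processing notes name mm10, DESeq2 1.20.0, featureCounts 1.5.0-p3 and HISAT2 2.0.5 and give no role for any of them. FPKM times GENCODE M21 exon length gave whole reads within 0.01 reads for 24970 genes (96.6%), and for 30 of the 31 genes reported. Each library is 1 mouse. A limma fit (limma 3.58.1, R 4.3.3) of log2(FPKM + 0.5) took the means of the 4 groups, with 16 residual degrees of freedom and eBayes with trend. Benjamini-Hochberg adjustment ran over 13723 genes with a mean of at least 0.5 FPKM, 12128 being left out, with a threshold of 0.05. Fold changes are on that log2 scale, which understates changes of low genes. The interaction subtracts the training change of wild-type from that of labelled knockout hearts. The procedure was run on simulated reads with a fixed spread and changes in sedentary labelled knockout libraries only. Differences between libraries such as those in Arntl or Myl7 were not simulated. Tables used Python 3.11.15, pandas 2.3.3 and numpy 2.4.6.

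The genes, their roles and the other lists were chosen with earlier results of these data known. Values per library are given for up to 3 called genes of each role and comparison by smallest p, for the smallest p of a role with no call, and for every gene called in the interaction. Of the further pathway genes up to 4 called per comparison were eligible, and other genes named were chosen after their values were seen. Alternatives were pseudocounts of 0.1 and 1, filters, scalings, fits of the compared groups alone, array weights, robust eBayes, a replicate block and each library left out. Added once the values were known were limma voom on the recovered reads, fits without high-Myl7 or high-Arntl libraries and fits with either gene as covariate.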

Additional observations from a re-analysis of the deposited data

Results flagged for a closer look

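In 7 of 120 groups of 5 libraries, 1 library stood apart by Dixon's criterion, where chance gives about 1 in 20. Sedentary labelled knockout library 3 was high for Fh1 (140 FPKM, against 124 to 128 FPKM in the other 4), Idh3b (219.9 FPKM, against 204 to 206 FPKM) and Mpc1 (26.4 FPKM, against 21.4 to 22.3 FPKM), and library 1 of that group was high for Pdpr (10.4 FPKM, against 0.678 to 1.42 FPKM). Trained labelled knockout library 2 was high for Pcx (18 FPKM, against 6.39 to 8.48 FPKM). Sedentary wild-type library 4 was high for Got1 (388 FPKM, against 315 to 336 FPKM), and library 1 for Pdhx (40.1 FPKM, against 29.3 to 32.4 FPKM).

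The training change differed between labelled knockout and wild-type hearts for 15 genes by the interaction term of the limma fit. The log2 differences, labelled knockout minus wild type, were -0.68 for Mpc2, -0.42 for Mpc1 and -0.40 for Pdhb in pyruvate entry. In the cycle they were -0.64 for Mdh2, -0.61 for Suclg1, -0.58 for Idh2, -0.52 for Idh3g, -0.50 for Fh1, -0.50 for Idh3b and -0.33 for Idh3a. In the shuttle they were -0.64 for Got1, -0.54 for Mdh1, -0.46 for Slc25a11 and -0.39 for Got2, and for the kinase Pdk2 the difference was -0.57.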

How the results depend on the processing

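No called gene changed sign under any alternative run. For genotype at rest the count of 23 called genes became 15 under TPM scaling and 12 with log2 Arntl in the fit. Without the libraries with Arntl above 2 FPKM, which leaves 1 sedentary wild-type library, the median log2 fold change was -0.39. With 1 library in that group, this fit cannot show whether the 23 calls hold. Those libraries left out, the log2 fold change of Ppargc1a was 1.13 and lost its call. The median after training (-0.75) was -0.46 under TPM and -0.54 under TPM without the mitochondrial genome, and that for training in labelled knockout hearts (-0.52) was -0.26 and -0.34. For training in wild-type hearts the count of 3 was 0 with no filter, under TPM, in the compared groups alone, without the high-Myl7 or the high-Arntl libraries and with either gene in the fit, 10 with array weights, 6 with the replicate block, and 0 to 13 with single libraries left out. For the interaction the count of 15 was 4 and the median -0.16 under TPM, 2 and -0.12 without the mitochondrial genome, and 0 without the high-Arntl libraries. Leaving out single libraries gave 17 to 25 called genes for genotype at rest, 25 to 27 for genotype after training, 24 to 25 for training in labelled knockout hearts and 10 to 16 for the interaction.

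Under TPM the split of all called genes moved to 789 lower and 5128 higher for genotype after training, against 2112 and 1713 as reported, and to 630 and 4052, against 2236 and 1656, for training in labelled knockout hearts. At rest it moved to 393 and 1061, against 867 and 955, in wild-type training to 54 and 186, against 347 and 403, and in the interaction to 58 and 348, against 686 and 319. Same-numbered libraries of different groups correlated at a median r of 0.07 (-0.28 to 0.48 over 30 pairs, 12 above 0.1, 9 best with their own number). Libraries numbered 1 correlated at 0.25 to 0.36 in every pair of groups, so the median alone does not show whether the numbers pair mice. With the number as a block, 25 genes were called for genotype at rest, 28 after training, 24 for training in labelled knockout hearts and 15 for the interaction. Among all genes the block gave 1255 lower and 1212 higher at rest, against 867 and 955. For training in wild-type hearts it gave 860 and 804, against 347 and 403. Array weights gave 1418 lower and 1221 higher there, and leaving out trained wild-type library 1 gave 1260 and 1051. Depth limits Nnt most, at 9 to 37 recovered reads per library. Pdpr had 50 to 1893 reads and also varied widely within groups, with coefficients of variation from 45.9% to 143.7%.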
